A study of Mus musculus with 12 samples.

Results

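The genes described here are the cytokine, chemokine, tumour necrosis factor (TNF) and NF-kB genes measured in 393P cells. They were taken by gene name from the deposited count table: names that begin with Ccl, Cxcl, Csf or Il and a digit, or with Tnf or Nfkb, together with Rela, Relb, Rel, Ptgs2, Lif, Ikbkb, Traf1 and Traf2. The names took 82 of 12208 genes, of which 80 passed the filter on low counts, among 12027 that passed in all. 393P is a mouse lung adenocarcinoma line, labelled epithelial and non-metastatic. Zeb1 is a transcription factor known for repressing epithelial genes. The 4 lines compared were Zeb1_mimetic, Zeb1_deficient, Zeb1_WT and GFP_Vector, the last being the negative control, each with 3 untreated libraries labelled as biological replicates. The series title concerns acetylation of ZEB1 at a lysine, and the mimetic and deficient forms are read here as mimicking and lacking that acetylation. The labels name no promoter or clone for the added genes, each form is represented by 1 line, and all 4 lines descend from 393P with its own Zeb1. The series' design text gives 2 replicates per sample where the labels number 3. Nothing in the labels says that the 3 came from separate cultures, so p-values measure the spread between these libraries.

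Cytokines, chemokines and TNF-family ligands are secreted or surface-bound signals that cells read through matched receptors. Many of those receptors act through TRAF adaptors and the IKK kinases to free NF-kB, a family of dimers of RelA, RelB, c-Rel, p50 and p52, from inhibitor proteins of the IkB family. NF-kB then switches on target genes, which include several of its own inhibitors, and in tumour cells the chemokines and colony-stimulating factors among them are known for drawing and shaping myeloid cells.

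Levels are in CPM, each library's tags scaled to a common total, after scaling by trimmed mean of M values (TMM). They come from 3′-end tag counts. Library totals were 24356697 to 27457818 counts in mimetic, 31010854 to 32950740 in deficient, 28402017 to 35773638 in WT and 33301106 to 39029599 in vector. Every gene of the table had at least 1 count in each library, so the genes could not include one that was silent in a line, and Tnf and Il6 were not analysed here. Zeb1 itself had 228 ± 12.2 CPM in mimetic, 484 ± 13.1 in deficient, 244 ± 6.87 in WT and 31.3 ± 2.79 in vector (SD, n = 3 each). The tags do not separate added from native Zeb1, and the part of Zeb1's own level in the results below was not tested. Of 6 epithelial markers, 5 were in the table, and their summed level was 5560 to 5730 CPM in mimetic, 7690 to 7820 in deficient, 4170 to 4320 in WT and 9050 to 10500 in vector. Of 13 leukocyte markers, 4 were in the table (Cd14, Cd68, Coro1a, Fcer1g), with sums of 22 to 22.5 CPM in mimetic, 26.5 to 28.3 in deficient, 27.4 to 28.7 in WT and 52.2 to 65.8 in vector. Most of each sum was Cd14 alone, which averaged 18.1 CPM in mimetic, 21.3 in deficient, 24.9 in WT and 50.9 in vector. The pan-leukocyte gene Ptprc was not analysed here. Of 5 endothelial markers, 2 were in the table (Kdr, Pecam1), with sums of 2.61 to 3.11 CPM in mimetic, 5.37 to 7.15 in deficient, 0.736 to 1.14 in WT and 0.29 to 1.01 in vector. The part of these markers in the cytokine results was not tested. In bulk RNA, fewer cells of a type and less RNA per cell cannot be told apart.

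Relative to each other, the lines differed in the direction in which these genes moved. Differences were tested with edgeR's quasi-likelihood test, with p-values adjusted by Benjamini-Hochberg over all tested genes, and a gene counted as changed at an adjusted p under 0.05. In WT against vector, 59 of the 80 genes changed (73.8%, against 64.6% of all genes), 18 higher (22.5%, against 31%) and 41 lower (51.2%, against 33.6%). In deficient against vector, 49 changed (61.3%, against 58.2% of all genes), 28 higher (35%, against 28.4%) and 21 lower (26.2%, against 29.8%). In mimetic against vector, 49 changed (61.3%, against 59.5% of all genes), 21 higher (26.2%, against 28.6%) and 28 lower (35%, against 30.9%). The share of changed genes was thus near the background in both mutant comparisons with vector, and the lower calls of WT stood above it.

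The mutant lines also differed from WT and from each other. In deficient against WT, 53 of 80 genes changed (66.2%, against 53.8% of all genes), 40 higher (50%, against 27.5%) and 13 lower (16.2%, against 26.3%), with a median log2 fold change of 0.25, against 0.01 over all genes. In mimetic against WT, 34 changed (42.5%, against 44.9% of all genes), 25 higher (31.2%, against 23.1%) and 9 lower (11.2%, against 21.8%). In mimetic against deficient, 30 changed (37.5%, against 27.4% of all genes), 7 higher (8.75%, against 12.6%) and 23 lower (28.7%, against 14.9%), with a median of -0.14, against 0.004 over all genes. The genes lay more often on the higher side in deficient, whether the other line was WT or mimetic, though not in each group. In mimetic against deficient, the 11 chemokines gave 3 higher (27.3%) and 2 lower (18.2%). The 23 interleukin receptors gave 4 each way (17.4%), and no other group had a higher call there. Of the 80 genes, deficient held the highest mean level for 27 (33.8%, against 20% of all genes) and vector for 29 (36.2%, against 34.3%), while mimetic held it for 13 (16.2%, against 17.6%) and WT for 11 (13.8%, against 28%). The summed CPM of the 82 genes was 2635 to 2718 in mimetic, 2979 to 3073 in deficient, 2513 to 2538 in WT and 2813 to 2840 in vector. 

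By number of higher and lower genes, changes of at least 2-fold leaned the same way in each comparison except mimetic against vector. In deficient against WT 16 of the 80 genes were higher (20%, against 7.28% of all genes) and 2 lower (2.5%, against 1.5%). In mimetic against WT 9 were higher (11.2%, against 4.79%) and 1 lower (1.25%, against 0.823%), and in mimetic against deficient 1 was higher (1.25%, against 0.998%) and 6 lower (7.5%, against 1.63%). Against vector, 10 were higher (12.5%, against 5.47%) and 9 lower (11.2%, against 3.89%) in mimetic, 11 higher (13.8%, against 5.56%) and 6 lower (7.5%, against 2.98%) in deficient, and 8 higher (10%, against 4.85%) and 16 lower (20%, against 7.51%) in WT. In all 6 comparisons these genes passed 2-fold more often than genes at large in at least 1 direction; the difference in share was not tested. The comparisons share libraries, so their counts are given side by side and are not independent of one another.

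**Figure D1:**
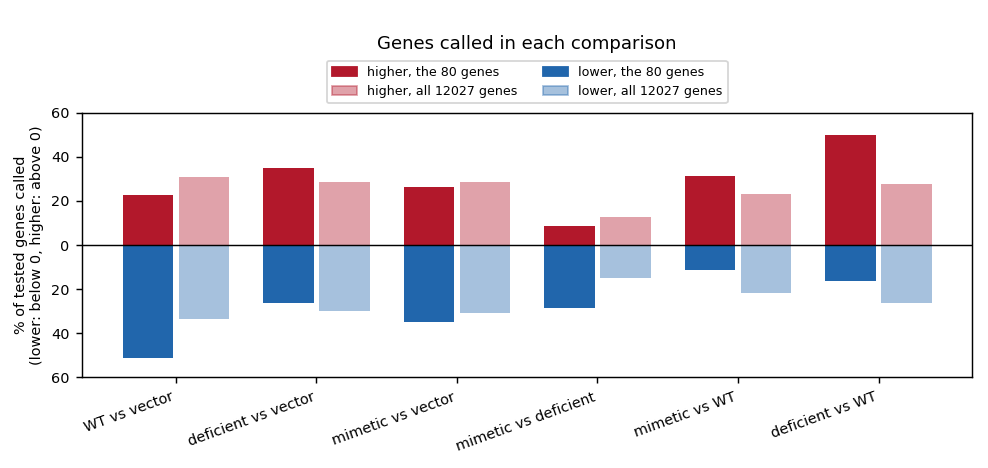
Share of the 80 tested genes (dark bars) and of all 12027 tested genes (pale bars) that were higher (above 0) or lower (below 0) at an adjusted p under 0.05, by comparison, in percent. The 40 higher calls of deficient against WT are 50% of the 80 genes, against 27.5% of all genes, and the 41 lower calls of WT against vector are 51.2%, against 33.6%.

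By mean level, 10 of the 82 genes stood at 100 CPM or more, 31 at 10 to under 100, 25 at 1 to under 10 and 16 under 1. Among the 80 tested, 69 (86.2%) changed in at least 1 of the 6 comparisons, against 87.2% of all tested genes. The 11 that passed in none were Ccl6, Il13ra2, Il15, Il17re, Il20rb, Il4, Nfkbil1, Tnfrsf18, Tnfrsf4, Tnfsf12 and Tnfsfm13. All but Nfkbil1 averaged under 10 CPM, a range in which replicates spread more. The median coefficient of variation between replicates was 13.4 to 21.8% over the lines for the 39 tested genes under 10 CPM, against 3.86 to 5.16% for the 41 above. Il11 and the B-cell factor Tnfsf13b were too low to test, with at most 9 and 12 counts in any library. Tnfsf13b counts were 2, 1 and 1 in mimetic, 10, 12 and 6 in deficient, 4, 4 and 1 in WT and 4, 1 and 6 in vector.

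**Figure D2:**
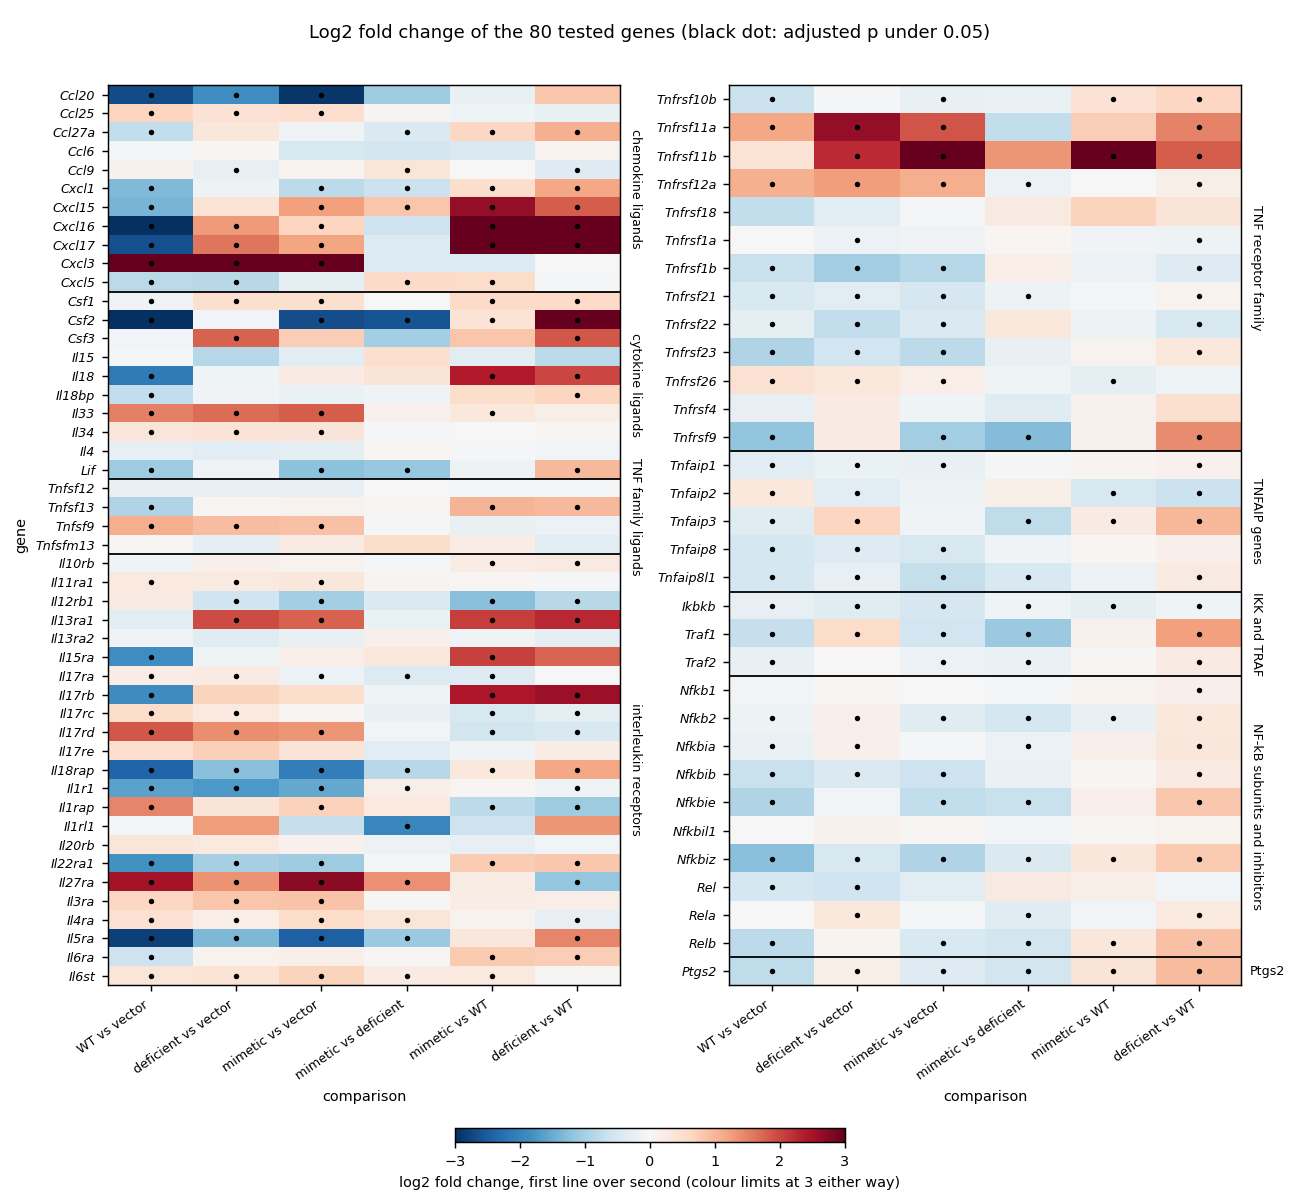
Log2 fold change (colour, limits at 3 either way) of the 80 tested genes in rows, grouped by role, in the 6 comparisons (columns, first line over second). A black dot marks an adjusted p under 0.05. The columns of deficient against WT are mostly red (40 higher, 13 lower) and those of WT against vector mostly blue (18 higher, 41 lower).

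Among the secreted cytokines, Csf2 and Lif split the lines into a high and a low pair. Csf2, at chr11:54247271-54249667 (GRCm38, minus strand), encodes GM-CSF, a growth factor for granulocytes and macrophages. It had 3.99, 3.696 and 3.33 CPM in mimetic, 23.3, 21.7 and 20.7 in deficient, 2.84, 2.46 and 3.06 in WT and 21.5, 22.8 and 25.1 in vector. All 6 libraries of mimetic and WT lay under 4 CPM and all 6 of deficient and vector above 20. Csf2 fell in WT against vector (log2 fold change -3.06, SE 0.11, adjusted p = 3.36e-15) and in mimetic against vector (log2 fold change -2.66, SE 0.11, adjusted p = 3.84e-14). In deficient against WT the log2 fold change was 2.98 (SE 0.11, adjusted p = 1.55e-14), and against vector it was -0.08 (SE 0.09, adjusted p = 0.485), which did not pass. In mimetic against deficient it was -2.58 (SE 0.11, adjusted p = 7.31e-13). Mimetic lay slightly above WT (log2 fold change 0.40, SE 0.14, adjusted p = 0.0217). That call was lost without WT replicate 2 (adjusted p = 0.118), without mimetic replicate 1 (0.087) and without mimetic replicate 2 (0.0522). It was also lost with only the 2 lines compared (0.0804), within a range of 0.00958 to 0.118 over all alternatives.

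Lif encodes leukaemia inhibitory factor, an interleukin-6 family cytokine. It had 13.6, 11.8 and 14.1 CPM in mimetic, 29.3, 25.6 and 31.5 in deficient, 15.6, 15.6 and 12.5 in WT and 30.9, 30.7 and 30.6 in vector. The deficient and vector libraries overlapped, all at 25.6 CPM or above, and none of the mimetic or WT libraries reached 16. Lif fell in WT against vector (log2 fold change -1.07, SE 0.10, adjusted p = 4.26e-09) and in mimetic against vector (log2 fold change -1.22, SE 0.10, adjusted p = 1.12e-09). It was higher in deficient than in WT (log2 fold change 0.98, SE 0.10, adjusted p = 3.63e-08), and lower in mimetic than in deficient (log2 fold change -1.13, SE 0.10, adjusted p = 2.14e-08). Deficient against vector (log2 fold change -0.10, SE 0.09, adjusted p = 0.385) and mimetic against WT (log2 fold change -0.15, SE 0.10, adjusted p = 0.254) did not pass.

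Csf1 and Il33 did not share that order. Csf1, which encodes the macrophage growth factor M-CSF, had 206, 217 and 221 CPM in mimetic, 202, 211 and 232 in deficient, 142, 142 and 146 in WT and 153, 159 and 153 in vector. Both mutant lines lay above WT and vector in every library. The log2 fold change was 0.47 (SE 0.05, adjusted p = 4.17e-08) in mimetic against vector and 0.47 (SE 0.05, adjusted p = 4.57e-08) in deficient against vector. Against WT it was 0.58 (SE 0.05, adjusted p = 5.36e-09) in mimetic and 0.58 (SE 0.05, adjusted p = 2.72e-09) in deficient. Il33, an alarmin of the interleukin-1 family, had 11.8, 10.5 and 10.98 CPM in mimetic, 11.3, 9.35 and 9.66 in deficient, 8.29, 8.46 and 10.01 in WT and 3.63, 2.61 and 3.17 in vector. Every library with added Zeb1 exceeded every vector library. It was higher than vector in mimetic (log2 fold change 1.82, SE 0.14, adjusted p = 4.12e-10), in deficient (log2 fold change 1.68, SE 0.14, adjusted p = 1.42e-09) and in WT (log2 fold change 1.503, SE 0.14, adjusted p = 6.15e-09).

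The other cytokine ligands were lower in level. Il34, an alternative ligand of the M-CSF receptor, had 8.64 to 9.22 CPM in vector libraries and more in every library of the other lines (log2 fold change 0.38, SE 0.10, adjusted p = 0.00287 in mimetic, 0.41, SE 0.10, adjusted p = 0.00132 in deficient and 0.36, SE 0.10, adjusted p = 0.00323 in WT, each against vector). Il18, which encodes an inflammasome-processed cytokine, was chosen after its values were seen. Its counts were 17, 20 and 9 in mimetic, 21, 12 and 10 in deficient, 3, 5 and 2 in WT and 22, 14 and 14 in vector. The WT counts lay under all others, and the ratio of WT to vector over summed counts scaled for depth was 0.224 (95% Clopper-Pearson interval 0.101 to 0.447, covering counting error only). Over the 10 tested cytokine ligands, 7 changed in WT against vector (70%, against 64.6% of all genes), 2 higher and 5 lower. In deficient against vector 4 changed (40%, against 58.2%), all higher, and in mimetic against vector 5 (50%, against 59.5%), 3 higher and 2 lower, so these shares were near or under the background. Against WT, 6 were higher in deficient (60%, against 27.5% of all genes) and 4 in mimetic (40%, against 23.1%), and none was lower.

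Cxcl1, on mouse chromosome 5, encodes a neutrophil-drawing chemokine and is a textbook NF-kB target. It had 16.4, 16.6 and 17.1 CPM in mimetic, 26.7, 27.5 and 23.6 in deficient, 12.1, 13.4 and 9.01 in WT and 30.1, 26.6 and 29.5 in vector. Deficient and vector overlapped, mimetic stood below both, and WT below mimetic, with no overlap among those 3 levels. Cxcl1 fell in WT against vector (log2 fold change -1.31, SE 0.11, adjusted p = 1.14e-09) and in mimetic against vector (log2 fold change -0.78, SE 0.10, adjusted p = 1.91e-06). Deficient exceeded WT (log2 fold change 1.17, SE 0.11, adjusted p = 1.52e-08), mimetic lay below deficient (log2 fold change -0.63, SE 0.10, adjusted p = 0.000117), and mimetic exceeded WT (log2 fold change 0.53, SE 0.11, adjusted p = 0.000582). Deficient against vector did not pass (log2 fold change -0.15, SE 0.10, adjusted p = 0.215).

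Cxcl3, a neighbour of Cxcl1 in the same chromosome 5 cluster, moved otherwise; it and the chemokines named in the next paragraph were chosen after their values were seen. Its counts were 28, 25 and 30 in mimetic, 41, 49 and 42 in deficient, 41, 51 and 35 in WT and 2, 1 and 6 in vector. Each library with added Zeb1 held at least 25 counts and no vector library more than 6. The ratio to vector was 11.9 (95% Clopper-Pearson interval 5.98 to 27) in mimetic, 15.7 (8.03 to 35.1) in deficient and 15.8 (8.08 to 35.4) in WT. The adjusted p was 1.14e-06, 1.47e-07 and 1.04e-07 in the same order. Cxcl1 and Cxcl3 thus had different orders across the lines, and the RefSeq window around the start of each holds matches to the 10-base NF-kB consensus, searched on both strands. The windows run from 250 bases before to 50 after the start and are printed to show those overlapping matches, a run of 11 bases in capitals, at -71 for Cxcl1 and -73 for Cxcl3 (first base, with -1 next to the start). By RefSeq (GRCm38.p6), the Cxcl1 window is chr5:90890995-90891294 (plus strand) and that of Cxcl3 chr5:90785851-90786150 (plus strand).
Cxcl1: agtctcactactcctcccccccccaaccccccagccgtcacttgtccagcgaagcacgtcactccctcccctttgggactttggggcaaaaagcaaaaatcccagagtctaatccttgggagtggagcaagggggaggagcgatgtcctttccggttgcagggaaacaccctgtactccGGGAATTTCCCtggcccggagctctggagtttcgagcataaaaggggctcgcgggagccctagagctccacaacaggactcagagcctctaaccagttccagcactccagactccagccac
Cxcl3: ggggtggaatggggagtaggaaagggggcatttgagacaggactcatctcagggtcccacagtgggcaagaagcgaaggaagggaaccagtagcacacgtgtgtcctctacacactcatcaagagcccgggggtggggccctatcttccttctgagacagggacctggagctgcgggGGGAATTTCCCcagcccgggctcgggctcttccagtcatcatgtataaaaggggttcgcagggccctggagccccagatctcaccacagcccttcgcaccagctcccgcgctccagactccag

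Cxcl16 and Cxcl17, a transmembrane chemokine and a mucosal one, were low in WT and high in the mutants. Cxcl16 counts were 80, 62 and 66 in mimetic, 164, 120 and 105 in deficient, 9, 2 and 2 in WT and 59, 61 and 50 in vector. WT held 13 counts in all over 3 libraries. The ratio to WT was 18.4 (95% Clopper-Pearson interval 10.5 to 35.2) in mimetic and 28.6 (16.5 to 54.2) in deficient, and WT over vector was 0.0857 (0.0447 to 0.151). Cxcl17 counts were 100, 96 and 103 in mimetic, 159, 167 and 151 in deficient, 8, 12 and 4 in WT and 48, 66 and 54 in vector. The order was deficient, mimetic, vector and WT, with no overlap between any of the lines. Its ratio to WT was 14.4 (9.46 to 22.8) in mimetic and 19 (12.6 to 29.9) in deficient, and WT over vector was 0.16 (0.0998 to 0.247). The edgeR adjusted p of deficient against WT was 1.95e-09 for Cxcl16 and 3.73e-11 for Cxcl17.

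Of the remaining chemokines, Cxcl15, a lung-associated neutrophil chemokine of the mouse, had 4.55, 4.07 and 3.896 CPM in mimetic, 1.9, 3.01 and 2.15 in deficient, 0.5202, 0.481 and 1.03 in WT and 2.299, 1.38 and 1.61 in vector. It was highest in mimetic and lowest in WT, and mimetic exceeded WT (log2 fold change 2.64, SE 0.29, adjusted p = 3.45e-07) and vector (log2 fold change 1.24, SE 0.25, adjusted p = 0.000241). Cxcl5, another neutrophil chemokine, was lower than vector in deficient (log2 fold change -0.84, SE 0.12, adjusted p = 9.08e-06) and WT (log2 fold change -0.81, SE 0.13, adjusted p = 1.13e-05), and its difference in mimetic did not pass (log2 fold change -0.26, SE 0.12, adjusted p = 0.0727). Ccl20, which draws cells bearing the receptor CCR6, had counts of 4, 3 and 4 in mimetic, 8, 16 and 4 in deficient, 3, 8 and 4 in WT and 39, 47 and 23 in vector. Vector was above every library of the other lines, with a ratio to vector of 0.13 (95% Clopper-Pearson interval 0.0632 to 0.243) in mimetic, 0.275 (0.175 to 0.42) in deficient and 0.154 (0.0835 to 0.266) in WT. Over the 11 chemokines, 9 changed in WT against vector (81.8%, against 64.6% of all genes), 2 higher (18.2%, against 31%) and 7 lower (63.6%, against 33.6%). In deficient against vector 7 changed (63.6%, against 58.2%) and in mimetic against vector 7 (63.6%, against 59.5%), both near the background. By direction, deficient against vector gave 4 higher (36.4%, against 28.4%) and 3 lower (27.3%, against 29.8%). Mimetic against vector gave 5 higher (45.5%, against 28.6%) and 2 lower (18.2%, against 30.9%). Against WT, mimetic had 6 higher (54.5%, against 23.1% of all genes) and 0 lower, and deficient 5 higher (45.5%, against 27.5%) and 1 lower, the lower one being Ccl9 (log2 fold change -0.38, SE 0.06, adjusted p = 4.29e-05). Ccl27a has near-identical copies in the mouse genome, so its tags could be shared with them and its values are uncertain.

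**Figure D3:**
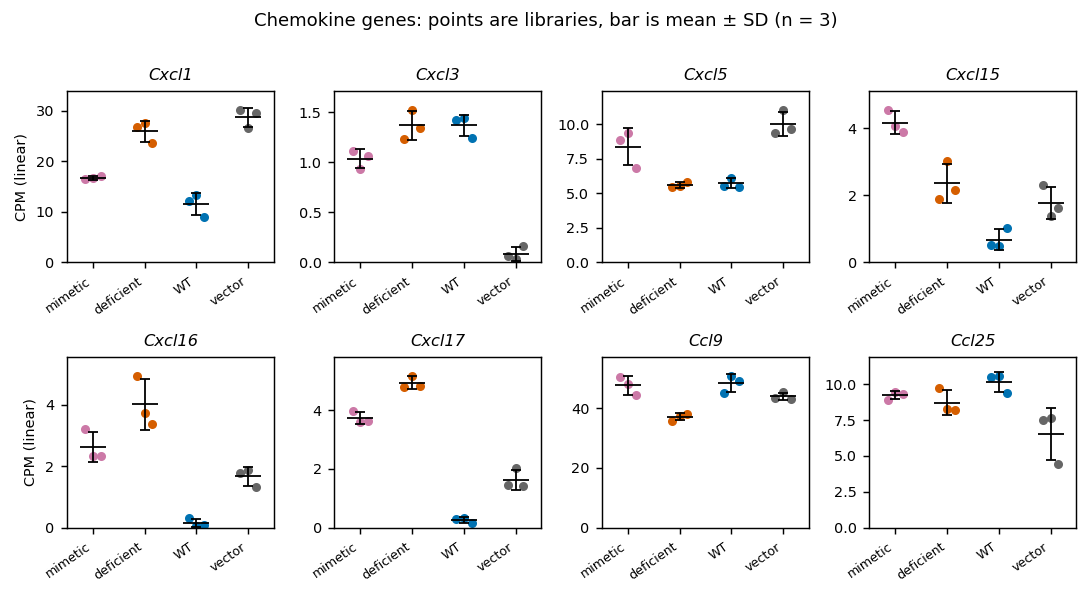
CPM (linear axis, from 0) of 8 chemokine genes in mimetic, deficient, WT and vector; points are libraries, and the bar and whiskers are mean ± SD (n = 3). Cxcl1 is high in deficient and vector, Cxcl3 is at most 0.16 CPM in vector and at least 0.93 elsewhere, and Cxcl16 and Cxcl17 are at most 0.34 CPM in WT.

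Tnfaip3, Traf1, Ptgs2 and Tnfrsf9, all known as NF-kB targets, were each higher in deficient than in WT and lower in mimetic than in deficient. Tnfaip3, at chr10:19000910-19015657 (GRCm38, minus strand), encodes A20, a ubiquitin-editing brake on NF-kB that NF-kB itself induces. It had 59.6, 57.4 and 59.5 CPM in mimetic, 95.3, 101 and 101 in deficient, 49.9, 49.8 and 49.4 in WT and 66.6, 63.96 and 59.8 in vector. Deficient stood above every other library, mimetic and vector touched at 59.6 to 59.8 CPM without crossing, and WT was lowest. The log2 fold change was 0.998 (SE 0.05, adjusted p = 2.02e-12) in deficient against WT, 0.65 (SE 0.05, adjusted p = 1.19e-09) in deficient against vector and -0.76 (SE 0.05, adjusted p = 8.07e-10) in mimetic against deficient. WT fell below vector (log2 fold change -0.35, SE 0.05, adjusted p = 6.25e-06), while mimetic against vector did not pass (log2 fold change -0.11, SE 0.05, adjusted p = 0.0808).

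Traf1, an adaptor of TNF receptors that NF-kB is known to induce, had 20.7, 21.7 and 21.7 CPM in mimetic, 47.3, 44.7 and 46.7 in deficient, 19.9, 19.4 and 19.7 in WT and 29.9, 31.6 and 33.4 in vector. Deficient stood above vector, and vector above mimetic and WT, with no overlap between those levels. Traf1 was higher in deficient than in WT (log2 fold change 1.24, SE 0.07, adjusted p = 2.73e-12) and than in vector (log2 fold change 0.55, SE 0.06, adjusted p = 2.83e-07). It was lower than vector in mimetic (log2 fold change -0.56, SE 0.07, adjusted p = 3.28e-07) and in WT (log2 fold change -0.69, SE 0.07, adjusted p = 1.46e-08), and lower in mimetic than in deficient (log2 fold change -1.11, SE 0.07, adjusted p = 1.1e-10). Mimetic and WT differed by 0.12 (SE 0.07, adjusted p = 0.154), which did not pass.

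Ptgs2, at chr1:150100031-150108227 (GRCm38, plus strand), encodes cyclooxygenase-2, the inducible enzyme of prostaglandin synthesis. It had 158, 162 and 161 CPM in mimetic, 232, 244 and 229 in deficient, 118, 125 and 123 in WT and 206, 215 and 202 in vector. The 4 lines formed 4 separate levels in the order deficient, vector, mimetic and WT, with no library out of place. All 6 comparisons passed, with log2 fold changes of 0.94 (SE 0.04, adjusted p = 2.19e-13) in deficient against WT, -0.77 (SE 0.04, adjusted p = 2.37e-12) in WT against vector and -0.55 (SE 0.04, adjusted p = 3.46e-09) in mimetic against deficient. The smallest was 0.18 (SE 0.04, adjusted p = 0.0011) in deficient against vector. Mimetic lay between WT (log2 fold change 0.39, SE 0.04, adjusted p = 3.02e-07 against it) and vector (log2 fold change -0.38, SE 0.04, adjusted p = 1.76e-07).

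Tnfrsf9 encodes the co-stimulatory receptor 4-1BB. It had 2.35, 3.55 and 2.23 CPM in mimetic, 6.66, 7.45 and 5.78 in deficient, 2.77, 2.12 and 2.53 in WT and 5.38, 5.78 and 5.65 in vector. Deficient and vector libraries were all above 5 CPM and mimetic and WT libraries all under 4. Tnfrsf9 was higher in deficient than in WT (log2 fold change 1.43, SE 0.17, adjusted p = 8.29e-07), lower in mimetic than in deficient (log2 fold change -1.29, SE 0.17, adjusted p = 1.09e-05), and lower than vector in WT (log2 fold change -1.19, SE 0.18, adjusted p = 5.92e-06) and mimetic (log2 fold change -1.05, SE 0.18, adjusted p = 3.42e-05). Its ligand gene Tnfsf9 had 6.101, 6.05 and 5.92 CPM in mimetic, 6.48, 5.19 and 6.87 in deficient, 7.94, 7.19 and 5.84 in WT and 3.21, 3.44 and 3.14 in vector. All libraries with added Zeb1 exceeded those of vector, so ligand and receptor had different orders. Against vector, the log2 fold change of Tnfsf9 was 0.88 (SE 0.15, adjusted p = 3.64e-05) in mimetic, 0.92 (SE 0.15, adjusted p = 1.97e-05) in deficient and 1.100 (SE 0.15, adjusted p = 1.44e-06) in WT.

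**Figure D4:**
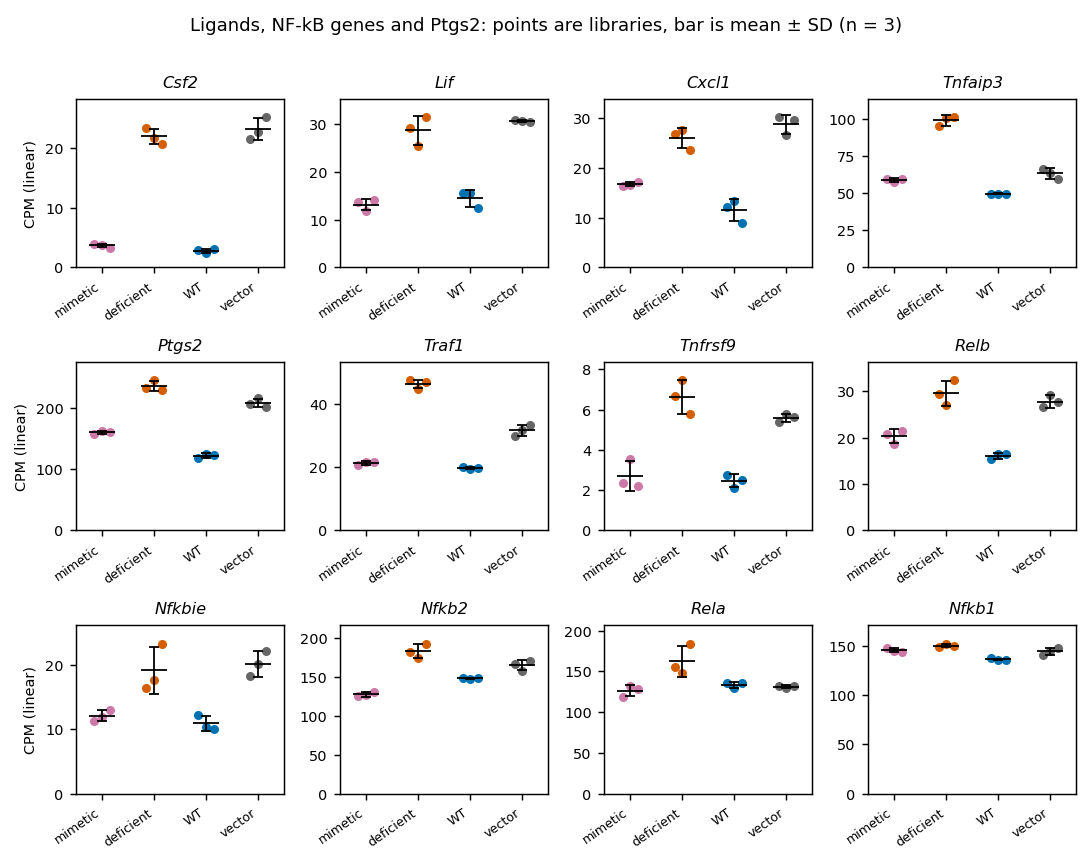
CPM (linear axis, from 0) of 12 ligand, NF-kB and Ptgs2 genes in mimetic, deficient, WT and vector; points are libraries, and the bar and whiskers are mean ± SD (n = 3). Csf2, Lif, Tnfrsf9 and Traf1 stand higher in all deficient libraries than in all mimetic and WT libraries, while Nfkb1 spans only 136 to 153 CPM over the 12 libraries.

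The promoter windows of 4 of these genes, each higher in deficient than in WT and each with a motif to mark, are shown. Capitals mark the NF-kB consensus in Tnfaip3 and Tnfrsf9. They mark CACCTG, or CAGGTG where it lies on the other strand, in Csf2 and Ptgs2; this is the E-box that Zeb1 is known to bind. Tnfaip3 has 2 matches, with first bases at -125 and -12, and Tnfrsf9 a run of 11 bases at -43 made of overlapping matches. Csf2 has an E-box at -121 and Ptgs2 an E-box at -147. In lower case, the Tnfaip3 window also holds an E-box at -140 and the AP-1 motif TGANTCA at -136. The Tnfrsf9 window holds TGANTCA at -15, and the Csf2 and Ptgs2 windows hold no NF-kB match. Traf1 and Lif were also higher in deficient than in WT and are not printed. The Traf1 window holds none of these motifs, and the Lif window holds an NF-kB match, an E-box and TGANTCA. Positions count from the RefSeq start, which for Csf2 lies upstream of the GENCODE gene given above, so that its window lies wholly outside those coordinates, and for Tnfrsf9 lies inside the GENCODE gene. Tnfaip3 and Tnfrsf9 each have another window, not printed, with no NF-kB match, and that of Tnfrsf9 holds an E-box at +12. Windows are from RefSeq (GRCm38.p6), 5′ to 3′ on the gene's strand, and no other motif is in capitals: Tnfaip3 at chr10:19015361-19015660 (minus strand), Tnfrsf9 at chr4:150927749-150928048 (plus strand), Csf2 at chr11:54249850-54250149 (minus strand) and Ptgs2 at chr1:150099781-150100080 (plus strand).
Tnfaip3: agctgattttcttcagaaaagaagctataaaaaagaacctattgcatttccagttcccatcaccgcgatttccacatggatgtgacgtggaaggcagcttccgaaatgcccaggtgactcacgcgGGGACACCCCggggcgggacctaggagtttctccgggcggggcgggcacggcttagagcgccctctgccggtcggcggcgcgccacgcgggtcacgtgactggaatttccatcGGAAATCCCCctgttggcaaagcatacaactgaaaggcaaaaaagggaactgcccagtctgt
Tnfrsf9: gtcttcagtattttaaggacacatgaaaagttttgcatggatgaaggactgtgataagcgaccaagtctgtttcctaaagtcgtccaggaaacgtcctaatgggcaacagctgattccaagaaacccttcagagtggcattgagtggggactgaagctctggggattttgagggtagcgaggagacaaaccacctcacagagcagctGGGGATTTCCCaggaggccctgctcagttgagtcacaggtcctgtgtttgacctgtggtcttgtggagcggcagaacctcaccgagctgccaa
Csf2: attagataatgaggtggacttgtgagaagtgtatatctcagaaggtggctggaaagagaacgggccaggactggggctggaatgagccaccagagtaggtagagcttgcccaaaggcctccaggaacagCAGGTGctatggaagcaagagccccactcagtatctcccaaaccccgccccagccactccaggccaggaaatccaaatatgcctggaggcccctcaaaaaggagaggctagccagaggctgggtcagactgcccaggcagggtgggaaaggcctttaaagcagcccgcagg
Ptgs2: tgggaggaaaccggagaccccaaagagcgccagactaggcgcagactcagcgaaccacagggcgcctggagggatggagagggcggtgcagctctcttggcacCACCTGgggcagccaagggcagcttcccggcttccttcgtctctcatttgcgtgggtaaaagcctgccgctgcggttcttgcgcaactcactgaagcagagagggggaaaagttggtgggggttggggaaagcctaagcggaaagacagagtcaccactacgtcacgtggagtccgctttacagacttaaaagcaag

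Of the 82 genes, 61 had a window in the RefSeq table, 77 windows in all. On either strand, the NF-kB consensus was in 20 of the 77 (26%), against 8.46% of all 32851 windows. The AP-1 motif TGANTCA was in 16 (20.8%), against 7.81% of all windows, and CACCTG was in 16 (20.8%), against 20.2%. These are letter matches and say nothing of binding.

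The 5 NF-kB subunit genes differed by less than 2-fold in each of the 6 comparisons. Nfkb2, which encodes the p100 precursor of p52, had 125, 127 and 131 CPM in mimetic, 182, 175 and 193 in deficient, 148, 147 and 149 in WT and 166, 158 and 170.2 in vector. The lines stood apart in the order deficient, vector, WT and mimetic, which put mimetic rather than WT at the bottom. Measured as log2 fold change, Nfkb2 gave -0.52 (SE 0.04, adjusted p = 2.12e-08) in mimetic against deficient, 0.30 (SE 0.04, adjusted p = 8.32e-06) in deficient against WT and -0.21 (SE 0.04, adjusted p = 0.000655) in mimetic against WT. Relb, the usual partner of p52, had 20.7, 18.6 and 21.5 CPM in mimetic, 29.3, 26.9 and 32.3 in deficient, 15.4, 16.5 and 16.4 in WT and 26.5, 29.1 and 27.6 in vector. Deficient and vector overlapped above mimetic, and mimetic lay above WT without overlap. Relb fell in WT against vector (log2 fold change -0.78, SE 0.08, adjusted p = 5.22e-08) and in mimetic against deficient (log2 fold change -0.54, SE 0.08, adjusted p = 3.84e-05), and was higher in deficient than in WT (log2 fold change 0.87, SE 0.08, adjusted p = 2.22e-08).

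Rela, the transactivating subunit p65, had 119, 132 and 128 CPM in mimetic, 155, 148 and 184 in deficient, 135, 129 and 136 in WT and 133, 129 and 132 in vector. Deficient lay above all other libraries, and the mimetic, WT and vector libraries overlapped. It was higher in deficient than in vector (log2 fold change 0.31, SE 0.06, adjusted p = 0.00026) and than in WT (log2 fold change 0.28, SE 0.06, adjusted p = 0.000666), and lower in mimetic than in deficient (log2 fold change -0.36, SE 0.06, adjusted p = 0.000185). Nfkb1, the precursor of p50, had 148, 145 and 144 CPM in mimetic, 149, 153 and 149.9 in deficient, 138, 136 and 136 in WT and 141, 145 and 149 in vector. It passed in 1 comparison, deficient against WT (log2 fold change 0.14, SE 0.04, adjusted p = 0.0047). Rel, which encodes c-Rel, had 9.05, 9.15 and 10.2 CPM in mimetic, 6.66, 8.82 and 8.28 in deficient, 8.84, 9.87 and 6.27 in WT and 13.1, 14.2 and 8.98 in vector. It was lower in deficient than in vector (log2 fold change -0.61, SE 0.16, adjusted p = 0.00345) without overlap. Its call in WT against vector was lost without WT replicate 3 (adjusted p = 0.0661) and without vector replicate 2 (0.053), within a range of 0.000262 to 0.0661 over all alternatives.

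Among the genes with IkB names, Nfkbiz, which encodes the nuclear protein IkB-zeta, had 26.96, 25.2 and 30.9 CPM in mimetic, 36.8, 39.1 and 36.3 in deficient, 21.8, 22.4 and 20.97 in WT and 54.5, 49.6 and 51.6 in vector. Vector was highest, then deficient, mimetic and WT, with no overlap, and all 6 comparisons passed. The log2 fold change was -1.25 (SE 0.07, adjusted p = 6.72e-12) in WT against vector, -0.91 (SE 0.07, adjusted p = 1.36e-09) in mimetic against vector and -0.47 (SE 0.07, adjusted p = 9.27e-06) in deficient against vector. Nfkbie, which encodes IkB-epsilon, had 11.3, 11.8 and 12.96 CPM in mimetic, 16.4, 17.6 and 23.3 in deficient, 12.2, 10.4 and 10.01 in WT and 18.2, 20.05 and 22.1 in vector. Deficient and vector overlapped above mimetic and WT, and the difference was -0.89 (SE 0.12, adjusted p = 1.91e-06) in WT against vector and 0.81 (SE 0.12, adjusted p = 1.12e-05) in deficient against WT. Nfkbib, which encodes IkB-beta, had 12.9, 12.4 and 14.7 CPM in mimetic, 15.8, 14.6 and 15.4 in deficient, 12.8, 12.4 and 13.2 in WT and 20.8, 17.6 and 22.8 in vector and was lower than vector in mimetic (log2 fold change -0.62, SE 0.10, adjusted p = 1.68e-05), deficient (log2 fold change -0.42, SE 0.10, adjusted p = 0.000785) and WT (log2 fold change -0.68, SE 0.10, adjusted p = 3.98e-06). Nfkbia, which encodes IkB-alpha, had 54.9, 53.05 and 51.4 CPM in mimetic, 62.1, 59.9 and 58.9 in deficient, 49.9, 45.7 and 48.2 in WT and 53.4, 51.5 and 58.7 in vector. Deficient exceeded WT without overlap (log2 fold change 0.33, SE 0.06, adjusted p = 9.07e-05). The call in WT against vector was lost without WT replicate 2 (adjusted p = 0.0606) and without vector replicate 3 (0.0619), within a range of 0.00419 to 0.0619 over all alternatives. Its calls in deficient against vector and in mimetic against deficient were lost when any of several libraries was left out, with adjusted p values of up to 0.182 and 0.1. The former was also lost with only the 2 lines compared (0.0908) and the latter with library size as the only scaling (0.054).

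Over the 10 NF-kB subunit and IkB-named genes, deficient against WT gave 8 higher (80%, against 27.5% of all genes) and 0 lower, with a median log2 fold change of 0.29, against 0.01 over all genes. WT against vector gave 0 higher and 7 lower (70%, against 33.6%), and mimetic against vector 0 higher and 5 lower (50%, against 30.9%). Mimetic against deficient gave 0 higher and 6 lower (60%, against 14.9%). Deficient against vector gave 3 higher and 3 lower (30% each, against 28.4% and 29.8%), and mimetic against WT 2 higher and 1 lower (20% and 10%, against 23.1% and 21.8%). Sizes were mostly below 2-fold: only Nfkbiz in WT against vector passed that size. The kinase gene Ikbkb (IKK-beta), by contrast, had 67.6, 65.6 and 66.1 CPM in mimetic, 72.2, 73.7 and 73.6 in deficient, 79.5, 83.3 and 77.3 in WT and 93.1, 94.2 and 97.2 in vector. Its order was vector, WT, deficient and mimetic with no overlap, and it was lower than vector in mimetic (log2 fold change -0.51, SE 0.05, adjusted p = 8.06e-09), deficient (log2 fold change -0.38, SE 0.05, adjusted p = 6.92e-07) and WT (log2 fold change -0.24, SE 0.05, adjusted p = 9.86e-05). The Ikbkb call in mimetic against deficient was lost in 8 alternatives (adjusted p up to 0.0987) and that in deficient against WT in 3 (up to 0.0863). Traf2, the adaptor of TNF receptor 1 signalling, had 52.04, 52.1 and 47.9 CPM in mimetic, 59.8, 58.5 and 57.2 in deficient, 51.5, 50.8 and 46.5 in WT and 56.8, 52.4 and 63.8 in vector. The lines lay close together, and none of its 4 calls held in every alternative. Calls were lost without mimetic replicate 3, deficient replicate 1 or 2, WT replicate 3 or vector replicate 3, at adjusted p values of 0.052 to 0.155. With library size as the only scaling, those of mimetic against deficient (0.0507) and mimetic against vector (0.151) were lost, and with only the 2 lines compared that of mimetic against vector (0.0522).

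Genes of the pathway outside the naming rule were counted from a list of 30 NF-kB signalling genes, all tested. Deficient against WT gave 18 higher (60%, against 27.5% of all genes) and 2 lower (6.67%, against 26.3%). WT against vector gave 5 higher (16.7%, against 31%) and 15 lower (50%, against 33.6%), with 20 called in all (66.7%, against 64.6%). Mimetic against deficient gave 1 higher (3.33%, against 12.6%) and 12 lower (40%, against 14.9%). Deficient against vector gave 7 higher (23.3%, against 28.4%) and 8 lower (26.7%, against 29.8%). The 4 named here were each lower in WT than in vector. Birc3, which encodes the ubiquitin ligase cIAP2, averaged 3.19 ± 0.389 CPM in mimetic, 4.36 ± 0.311 in deficient, 0.945 ± 0.202 in WT and 7.101 ± 1.14 in vector, and its log2 fold change was -2.89 (SE 0.19, adjusted p = 5.66e-11) in WT against vector. Ikbke, which encodes IKK-epsilon, averaged 9.53 ± 1.31 CPM in mimetic, 16.3 ± 1.02 in deficient, 6.68 ± 0.389 in WT and 35.8 ± 0.705 in vector, with -2.42 (SE 0.10, adjusted p = 9.62e-15) in WT against vector and 1.29 (SE 0.10, adjusted p = 9.32e-10) in deficient against WT. Card10 and Malt1 encode parts of the CARD-BCL10-MALT1 complex that feeds IKK, and they changed by -1.44 (SE 0.11, adjusted p = 4.43e-10) and -1.07 (SE 0.09, adjusted p = 1.55e-09) in WT against vector. Of 20 known NF-kB targets outside the naming rule, 16 were in the table. Birc3 was among them and is thus counted in both lists. Deficient against WT gave 8 higher among them (50%, against 27.5% of all genes) and 4 lower (25%, against 26.3%), and mimetic against deficient 0 higher and 8 lower (50%, against 14.9%). Against vector, deficient had 5 of these targets higher (31.2%, against 28.4%) and 6 lower (37.5%, against 29.8%). Icam1, an adhesion molecule for leukocytes, averaged 24.2 ± 2.14 CPM in mimetic, 36.5 ± 1.27 in deficient, 17.6 ± 0.614 in WT and 32.1 ± 2.82 in vector, and Gadd45b, a stress-response gene, averaged 17.6 ± 0.628 CPM in mimetic, 31.4 ± 0.6201 in deficient, 20.7 ± 2.14 in WT and 12.01 ± 0.188 in vector. Icam1 was higher in deficient than in WT (log2 fold change 1.05, SE 0.08, adjusted p = 7.88e-10), and Gadd45b was higher in deficient than in vector (log2 fold change 1.39, SE 0.08, adjusted p = 9.84e-12). Cx3cl1, the fractalkine gene, went the other way and averaged 26.1 ± 1.29 CPM in mimetic, 28.8 ± 4.35 in deficient, 39.5 ± 1.99 in WT and 58.6 ± 1.44 in vector. It was lower in deficient than in vector (log2 fold change -1.03, SE 0.08, adjusted p = 1.48e-09) and than in WT (log2 fold change -0.46, SE 0.08, adjusted p = 0.000109). Its largest log2 fold change was that of mimetic against vector, at -1.16.

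Il1r1 and Il18rap, receptor genes of the interleukin-1 family, were lower than vector in all 3 lines with added Zeb1. Il1r1, the signalling receptor of interleukin-1, lies at chr1:40225080-40317257 (GRCm38, plus strand). It had 62.05, 60.7 and 62.2 CPM in mimetic, 55.3, 54.1 and 53.3 in deficient, 58.6, 60.6 and 57.7 in WT and 179.9, 183 and 175 in vector. The 9 libraries with added Zeb1 lay between 53.3 and 62.2 CPM and the vector libraries between 175 and 183.2. Against vector, its log2 fold change was -1.54 (SE 0.04, adjusted p = 1.54e-16) in mimetic, -1.73 (SE 0.04, adjusted p = 2.93e-17) in deficient and -1.604 (SE 0.04, adjusted p = 3.06e-17) in WT. Il18rap, the accessory chain of the interleukin-18 receptor, lies further along chromosome 1 and had 11.4, 8.89 and 11.2 CPM in mimetic, 18.97, 20.3 and 16.7 in deficient, 7.21, 9.22 and 8.69 in WT and 45.6, 45.9 and 41.9 in vector. Here deficient kept an intermediate level, above mimetic and WT and under vector without overlap. Its log2 fold change against vector was -2.08 (SE 0.10, adjusted p = 6.38e-13) in mimetic, -1.25 (SE 0.10, adjusted p = 8.43e-10) in deficient and -2.404 (SE 0.10, adjusted p = 4.76e-14) in WT, and deficient exceeded WT (log2 fold change 1.15, SE 0.11, adjusted p = 2.03e-08).

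Il1rap, the shared accessory chain of receptors for interleukin-1 and interleukin-33, moved the other way. It had 6.86, 4.18 and 4.64 CPM in mimetic, 4.101, 4.503 and 4.24 in deficient, 8.88, 8.91 and 9.04 in WT and 3.63, 3.598 and 2.56 in vector. WT stood above every other library, and it was higher than vector (log2 fold change 1.46, SE 0.17, adjusted p = 1.89e-07), while deficient lay below WT (log2 fold change -1.06, SE 0.16, adjusted p = 1.61e-05). Mimetic was also above vector (log2 fold change 0.68, SE 0.18, adjusted p = 0.00242) and below WT (log2 fold change -0.78, SE 0.16, adjusted p = 0.00059). The interleukin-33 receptor gene Il1rl1 had at most 0.66 CPM in any library, although Il33 was higher in the Zeb1 lines.

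Il5ra, the specific chain of the interleukin-5 receptor, had 3.27, 2.87 and 3.08 CPM in mimetic, 6.91, 6.61 and 6.51 in deficient, 2.46, 2.38 and 2.46 in WT and 17.7, 15.6 and 17.4 in vector. Vector was highest, deficient intermediate, and mimetic and WT low, with no overlap. Its log2 fold change against vector was -2.46 (SE 0.12, adjusted p = 2.6e-13) in mimetic, -1.34 (SE 0.10, adjusted p = 8.34e-10) in deficient and -2.796 (SE 0.12, adjusted p = 2.55e-14) in WT, and in deficient against WT it was 1.46 (SE 0.12, adjusted p = 4.76e-09). Il22ra1, the epithelial chain of the interleukin-22 receptor, had 5.104, 5.19 and 6.41 CPM in mimetic, 4.28, 7.39 and 5.74 in deficient, 3.78, 3.54 and 2.599 in WT and 12.1, 10.6 and 12.2 in vector. No library with added Zeb1 reached the vector libraries. It was lower than vector in mimetic (log2 fold change -1.06, SE 0.17, adjusted p = 1.37e-05), deficient (log2 fold change -1.004, SE 0.16, adjusted p = 2.16e-05) and WT (log2 fold change -1.81, SE 0.17, adjusted p = 1.38e-08).

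Il13ra1, a receptor chain for interleukin-13 on the X chromosome, separated the mutants from the wild-type form. It had 5.82, 5.67 and 6.91 CPM in mimetic, 6.09, 7.48 and 7.44 in deficient, 1.56, 1.61 and 1.17 in WT and 2.03, 1.63 and 1.77 in vector. All mutant libraries lay above 5 CPM and all WT and vector libraries at or under 2.03. Against WT, the log2 fold change was 2.07 (SE 0.18, adjusted p = 9.97e-09) in mimetic and 2.26 (SE 0.17, adjusted p = 1.07e-09) in deficient, and against vector 1.76 (SE 0.17, adjusted p = 1.96e-08) in mimetic and 1.95 (SE 0.17, adjusted p = 3.81e-09) in deficient. WT against vector did not pass (log2 fold change -0.31, SE 0.20, adjusted p = 0.178). Its window at chrX:36111858-36112157 (plus strand) is shown because it holds 2 E-boxes, in capitals, with first bases at -170 and -147, in a gene whose difference between WT and vector did not pass.
Il13ra1: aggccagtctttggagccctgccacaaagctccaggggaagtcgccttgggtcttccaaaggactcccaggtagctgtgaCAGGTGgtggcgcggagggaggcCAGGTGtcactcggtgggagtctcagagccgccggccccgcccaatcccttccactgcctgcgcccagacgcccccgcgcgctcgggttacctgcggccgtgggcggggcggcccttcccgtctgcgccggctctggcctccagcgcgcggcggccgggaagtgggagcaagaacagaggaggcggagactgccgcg

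Il12rb1, a chain of the receptors for interleukin-12 and interleukin-23, had the reverse pattern. It had 2.55, 3.55 and 2.55 CPM in mimetic, 3.92, 3.45 and 4.27 in deficient, 7.87, 6.39 and 6.55 in WT and 6.23, 4.49 and 6.81 in vector. No mutant library reached the lowest vector library, and mimetic was lower than WT (log2 fold change -1.26, SE 0.18, adjusted p = 9.77e-06) and vector (log2 fold change -1.02, SE 0.18, adjusted p = 5.94e-05), as was deficient (log2 fold change -0.84, SE 0.17, adjusted p = 0.000322 and -0.60, SE 0.17, adjusted p = 0.00521). Il6st and Il4ra moved by less than 2-fold. Il6st (gp130, the signal chain of the interleukin-6 family) averaged 188 ± 3.14 CPM in mimetic, 158 ± 4.87 in deficient, 155 ± 6.06 in WT and 119 ± 7.88 in vector, and Il4ra averaged 157 ± 4.89 CPM in mimetic, 123 ± 3.34 in deficient, 146 ± 4.51 in WT and 107 ± 4.36 in vector. Both were higher than vector in each line with added Zeb1, with the largest fold change in mimetic (for Il6st 0.66, SE 0.05, adjusted p = 3.52e-10, for Il4ra 0.56, SE 0.04, adjusted p = 1.37e-09).

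Over the 23 interleukin receptor genes, 16 changed in WT against vector (69.6%, against 64.6% of all genes), 9 higher and 7 lower. In deficient against vector 14 changed (60.9%, against 58.2%), 9 higher and 5 lower, and in mimetic against vector 14 (60.9%, against 59.5%), 8 higher and 6 lower. These shares were near the background. In mimetic against deficient 8 changed (34.8%, against 27.4%), 4 each way. A list of 26 JAK-STAT genes, which carry the signal of most of these receptors, gave 9 higher (34.6%, against 31% of all genes) and 11 lower (42.3%, against 33.6%) in WT against vector, and 8 higher (30.8%, against 28.6%) and 10 lower (38.5%, against 30.9%) in mimetic against vector. Osmr, the receptor of oncostatin M, averaged 8.86 ± 1.26 CPM in mimetic, 4.32 ± 0.292 in deficient, 1.67 ± 0.08795 in WT and 0.706 ± 0.128 in vector, and Lifr, the receptor of Lif, averaged 33.7 ± 0.749 CPM in mimetic, 13.5 ± 1.12 in deficient, 15.3 ± 1.27 in WT and 10.7 ± 1.695 in vector. Both partner with gp130, and both were highest in mimetic: against deficient, Lifr changed by 1.32 (SE 0.10, adjusted p = 3.84e-09) and Osmr by 1.04 (SE 0.15, adjusted p = 2.38e-05). The lines thus ranked differently for Lif and for its receptor gene, since Lif was low in mimetic. Stat5a was lower than vector in WT (log2 fold change -0.85, SE 0.09, adjusted p = 2.66e-08). Il11ra1 has near-identical copies in the mouse genome and overlaps Galt on the same strand, so its values are uncertain.

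**Figure D5:**
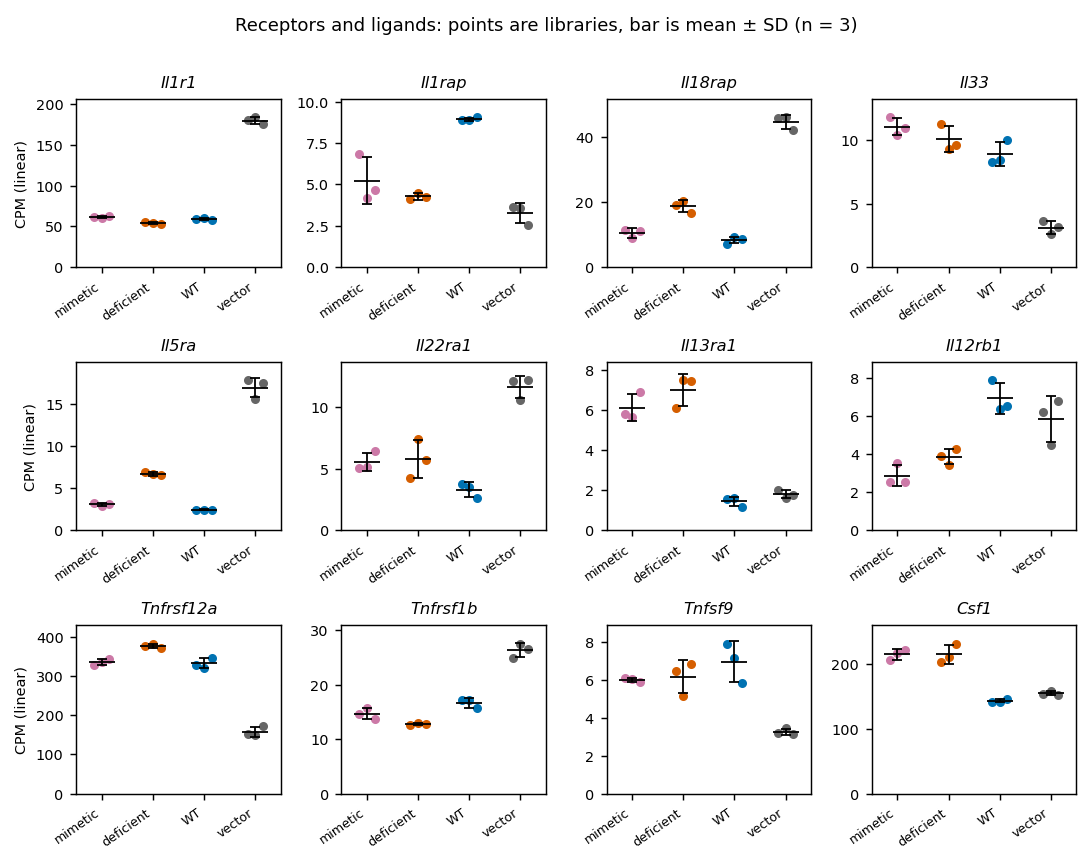
CPM (linear axis, from 0) of 12 receptor and ligand genes in mimetic, deficient, WT and vector; points are libraries, and the bar and whiskers are mean ± SD (n = 3). Il1r1 is at 53.3 to 62.2 CPM in the Zeb1 lines and at 175 CPM or more in vector, Tnfrsf12a has the opposite order, and Il13ra1 and Csf1 are high in both mutants.

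In the TNF receptor family, Tnfrsf12a (Fn14, the receptor of TWEAK) rose in every line with added Zeb1. It had 329, 336 and 343 CPM in mimetic, 376, 383 and 372 in deficient, 328, 322 and 346 in WT and 151, 149 and 171 in vector. The lowest of the 9 libraries with added Zeb1 was at 321.5 CPM and the highest vector library at 171.5. The log2 fold change against vector was 1.096 (SE 0.05, adjusted p = 1.08e-13) in mimetic, 1.26 (SE 0.05, adjusted p = 1.65e-14) in deficient and 1.08 (SE 0.05, adjusted p = 8.74e-14) in WT. Its ligand gene Tnfsf12 passed in no comparison. Tnfsf12 overlaps Tnfsfm13 on the same strand, as Tnfsf13 does, so that tags could be split with Tnfsfm13. Tnfrsf1b, TNF receptor 2, had 14.5, 15.7 and 13.8 CPM in mimetic, 12.5, 12.9 and 12.8 in deficient, 17.2, 17.2 and 15.6 in WT and 24.98, 27.6 and 26.6 in vector. Every vector library exceeded every other library, and the log2 fold change was -0.85 (SE 0.08, adjusted p = 1.6e-08) in mimetic, -1.05 (SE 0.08, adjusted p = 7.17e-10) in deficient and -0.66 (SE 0.08, adjusted p = 3.29e-07) in WT. Tnfrsf1a, TNF receptor 1, ranged from 54.7 to 66.8 CPM over all 12 libraries. Within that range its deficient libraries (54.7 to 57.2 CPM) lay under all of WT (60.3 to 66.8) and vector (59.8 to 65.4).

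The RANK gene Tnfrsf11a and its soluble decoy gene Tnfrsf11b (osteoprotegerin) were chosen after their values were seen. Tnfrsf11a had 1.83, 1.42 and 1.77 CPM in mimetic, 3.26, 2.24 and 2.95 in deficient, 1.21, 1.22 and 0.534 in WT and 0.605, 0.492 and 0.264 in vector, highest in deficient, which exceeded WT (log2 fold change 1.49, SE 0.30, adjusted p = 0.000319) and vector (log2 fold change 2.64, SE 0.33, adjusted p = 1.02e-06). Tnfrsf11b counts were 14, 29 and 53 in mimetic, 32, 10 and 4 in deficient, 2, 4 and 6 in WT and 3, 4 and 3 in vector. They spread widely within mimetic and within deficient, and the ratio of mimetic to vector was 12.4 (95% Clopper-Pearson interval 6.46 to 26.7, counting error only; adjusted p = 0.000128). Tnfrsf22, Tnfrsf23 and Tnfrsf26 are near-copies of one another on chromosome 7, so their counts are uncertain. Over the 13 TNF receptor genes, 10 changed in deficient against WT (76.9%, against 53.8% of all genes), 7 higher and 3 lower, and 10 in mimetic against vector (76.9%, against 59.5%), 4 higher and 6 lower. In deficient against vector 9 changed (69.2%, against 58.2%), 4 higher and 5 lower, and in WT against vector 9 (69.2%, against 64.6%), 3 higher and 6 lower. Of the 5 TNFAIP genes, Tnfaip1, Tnfaip8 and Tnfaip8l1 were lower than vector in all 3 lines with added Zeb1, and Tnfaip2 was higher in WT (log2 fold change 0.31, SE 0.08, adjusted p = 0.00156) and lower in deficient (log2 fold change -0.34, SE 0.08, adjusted p = 0.000924). Tnfaip3 alone among them was higher in deficient than in vector.

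Around Ptgs2, a list of 17 prostaglandin genes had 13 in the table. Deficient against WT gave 5 higher (38.5%, against 27.5% of all genes) and 5 lower (38.5%, against 26.3%). WT against vector gave 4 higher and 2 lower, and those 6 are 46.2% of the list, under the 64.6% of all genes. Abcc4, an exporter of prostaglandin E2, averaged 139 ± 3.25 CPM in mimetic, 172 ± 5.63 in deficient, 97.8 ± 1.95 in WT and 204 ± 7.05 in vector, the order seen for Ptgs2 except that vector stood above deficient. Its log2 fold change was -1.06 (SE 0.04, adjusted p = 1.39e-14) in WT against vector and 0.82 (SE 0.04, adjusted p = 2.44e-12) in deficient against WT. Pla2g4a, the phospholipase that frees arachidonic acid, averaged 88 ± 2.77 CPM in mimetic, 76.1 ± 4.06 in deficient, 114 ± 2.52 in WT and 92.7 ± 0.756 in vector and went the other way in deficient against WT (log2 fold change -0.58, SE 0.05, adjusted p = 2.57e-09). Ptgr1, a reductase that inactivates prostaglandins and leukotrienes, was higher than vector in mimetic (log2 fold change 1.44, SE 0.08, adjusted p = 3.54e-12), deficient (log2 fold change 1.35, SE 0.08, adjusted p = 1.1e-11) and WT (log2 fold change 1.53, SE 0.08, adjusted p = 7.64e-13). Slco2a1, the uptake transporter, was higher in mimetic than in deficient (log2 fold change 0.39, SE 0.09, adjusted p = 0.0022).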

How the data were processed

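RNA of 12 samples of 4 393P lines, 3 libraries each, was made into 3′-end tag libraries (QuantSeq FWD), per the labels' protocols. The authors deposited a table of raw counts per gene, and the submitters' processing notes name STAR and mm10; no source used here states versions, the counting tool or the strand setting. Counts were fitted with edgeR 4.0.16 under R 4.3.3 (quasi-likelihood test, filterByExpr, TMM factors, 1 coefficient per line, all 12 libraries sharing the spread). The filter removed 181 of 12208 genes. P-values were adjusted by Benjamini-Hochberg over 12027 genes, two-sided, with a threshold of 0.05. The SE of a log2 fold change is its size over the square root of F. Positions are from GENCODE M21 (all 82 genes matched) and promoter windows from RefSeq. The test was tried on simulated counts.

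The genes and lists were chosen with earlier results of these data known. Values in every library are given for 30 genes: those called with at least 2-fold change and 5 CPM in the higher line, and a set of core NF-kB genes and cytokines whatever their values. Other genes were named after their values were seen. Alternatives were another scaling (DESeq2's size factors, library size only), another filter (none, or 5 CPM in 3 libraries), DESeq2 1.42.0, a replicate block, only the 2 lines compared, and leaving out each library.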

Additional observations from a re-analysis of the deposited data

How the results depend on the processing

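Over 19 alternatives no named call changed sign and no total count of calls moved by over 1.5 times. By direction, the higher calls among these genes in mimetic against vector were 13 under the filter of at least 5 CPM in 3 libraries, which tests 53 of them, against 21 of 80 in the fit used. Of 133 calls among the 30 named genes, 116 held in every alternative and 17 were lost in at least 1, of which 8 were lost only when a library was left out. Those were calls of Csf1, Csf2, Ikbkb, Il18rap, Il1r1, Il33, Nfkbia, Nfkbib, Rel, Tnfrsf12a and Traf2. Leaving out each library gave 52 to 58 calls among the 80 genes in WT against vector (59 with all), 44 to 50 in deficient against vector (49), 45 to 50 in mimetic against vector (49), 24 to 34 in mimetic against deficient (30), 27 to 39 in mimetic against WT (34) and 43 to 54 in deficient against WT (53). With library size as the only scaling, the median of all genes shifted by at most 0.074 (log2), and 43 of the 80 genes were called in mimetic against WT (34 higher, 9 lower). There the higher share of all calls was 59.1% in mimetic against vector (48% in the fit used), 56.8% in mimetic against deficient (45.8%) and 63.9% in mimetic against WT (51.5%). Same-numbered libraries deviated together with correlations of -0.08 to 0.13, 1 of 18 above 0.1, so the numbers do not pair the libraries; a replicate block gave 58, 50, 49, 32, 35 and 53 calls in the 6 comparisons in the order above. Depth limits the 16 genes under 1 CPM.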
